A study of Homo sapiens with 22 samples.

Results

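The 9 genes described here are 3 Dickkopf genes (DKK1, DKK2 and DKK3), 3 genes of the TCF and LEF family (LEF1, TCF7 and TCF7L2), and AXIN2, LGR5 and LGR4, out of 20007 protein-coding genes of the GENCODE release 44 annotation on hg38. They were chosen by name as readout and inhibitor genes of the WNT pathway, and each locus was the gene with 50 kb to each side. The loci held 107 of 90572 H3K27ac regions, 20 of 20727 H3K4me3 regions and 3 of 2706 ETS1 regions.

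The cells were TC-32, an established Ewing sarcoma line that carries the fusion gene EWSR1::FLI1. They were reverse transfected with 20 nM of siNEG, a control siRNA, or of siFLI1, an siRNA against FLI1 used to deplete the fusion protein; all samples come from this 1 line and from 1 siRNA per arm, and the time after transfection is not given. Chromatin immunoprecipitation was done for the transcription factor ETS1, for H3K27ac (acetylated lysine 27 of histone H3, a mark of enhancers and promoters in use) and for H3K4me3 (trimethylated lysine 4 of histone H3, a mark of promoters), with 2 libraries per antibody and arm. A further H3K27ac library per arm carried ab4729 in its antibody label together with the Active Motif catalogue number of the other H3K27ac libraries, so which antibody was used is uncertain. It is called ab4729 here and was kept apart from the others. The 14 immunoprecipitated libraries each had a deposited peak list, and 8 input libraries had no list analysed here.

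WNT ligands bind Frizzled receptors and the LRP co-receptors, which stabilises beta-catenin. Beta-catenin then joins TCF and LEF proteins on DNA, and AXIN2, LEF1, TCF7 and LGR5 are widely used as target genes that report this activity. DKK1 and DKK2 are secreted proteins that bind the LRP co-receptors and block or tune the signal, while DKK3 is a more distant family member. LGR4 and LGR5 are receptors for R-spondins, secreted proteins that strengthen WNT signalling, and AXIN2 is part of the complex that breaks down beta-catenin. The fusion is known to lower DKK1 and to act on the output of LEF1 and TCF in Ewing sarcoma cells.

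The lists held between 60027 and 65501 peaks for H3K27ac, between 18344 and 19720 for H3K4me3, 302 and 208 for ETS1 in siNEG, and 1633 and 2635 for ETS1 in siFLI1. The ab4729 lists held 32738 peaks in siNEG and 51663 in siFLI1. Between the siFLI1 ETS1 lists, peak heights differed less than counting noise alone would give (chi-square per degree of freedom 0.322 over 1458 regions, lower-tail chi-square p = 1.61e-146), so these lists were counted as 1 sample. Read depth is unknown, and nothing in the labels says that replicates were separate transfections, so p-values measure the spread between libraries. All 6 Ewing sarcoma marker genes (STEAP1, BCL11B, PRKCB, NKX2-2, CD99 and NR0B1) had H3K4me3 at a transcription start site (TSS) in all 4 lists, against 0 of 4 blood genes, 1 of 4 epithelial genes (KRT18), 1 of 3 endothelial genes (KDR) and 2 of 4 stromal genes (PDGFRB and COL1A1).

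The 2 sets of sequence below are shown because the data bear on them directly. The first are the 250 bases before the start of DKK1, whose promoter H3K4me3 fold had the highest ratio of siFLI1 to siNEG among the 7 genes with such a region in all 4 lists, and of TCF7L2, where ETS1 peaks appeared in the siFLI1 lists. Both are from RefSeq (GRCh38.p14), on the + strand, and end at the base before the start site. The RefSeq table matched 5 of the 9 genes by symbol, namely DKK1, LEF1, TCF7, TCF7L2 and LGR4, and not DKK2, DKK3, AXIN2 and LGR5. Capitals mark the ETS site CCGGAA and the TCF and LEF site CTTTGAA or CTTTGAT, searched on both strands.
DKK1 promoter, chr10:52314031-52314280: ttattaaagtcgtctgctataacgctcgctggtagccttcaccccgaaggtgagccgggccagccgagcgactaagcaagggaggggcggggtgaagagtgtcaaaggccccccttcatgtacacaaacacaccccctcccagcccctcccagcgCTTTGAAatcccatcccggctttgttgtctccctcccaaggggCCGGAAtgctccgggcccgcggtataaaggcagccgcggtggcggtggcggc
TCF7L2 promoter, chr10:112949997-112950246: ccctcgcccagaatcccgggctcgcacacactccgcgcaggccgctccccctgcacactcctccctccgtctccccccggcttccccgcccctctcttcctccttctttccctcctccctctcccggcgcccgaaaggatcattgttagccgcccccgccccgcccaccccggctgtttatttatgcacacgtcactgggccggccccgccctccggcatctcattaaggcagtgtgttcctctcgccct
The DKK1 stretch held 1 TCF and LEF match whose first base lay at -95 and 1 ETS match whose first base lay at -52 from the start. An exon of the antisense RNA gene PRKG1-AS1 overlaps it. Neither letter string was in the TCF7L2 stretch. Of 15345 protein-coding promoters of this length in the table, 4.89% held the TCF and LEF site and 19.6% the ETS site.

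The second set are windows of 300 bases around the summits of H3K27ac regions found in both siFLI1 lists and in neither siNEG list, as read from hg38 on the + strand. Of 15 such regions at these loci, 4 held a TCF and LEF match in the window, and these 4 are shown. In all 7415 such regions the share was 9.32%. The first lies 5.5 kb past the start of DKK1, outside its exons.
DKK1 downstream, chr10:52319320-52319619: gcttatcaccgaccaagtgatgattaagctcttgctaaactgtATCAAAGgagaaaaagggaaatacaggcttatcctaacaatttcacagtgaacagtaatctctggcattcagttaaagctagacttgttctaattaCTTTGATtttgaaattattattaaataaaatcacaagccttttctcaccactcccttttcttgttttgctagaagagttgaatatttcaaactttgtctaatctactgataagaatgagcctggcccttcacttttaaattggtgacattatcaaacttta
TCF7L2 at 153.6 kb, chr10:113103796-113104095: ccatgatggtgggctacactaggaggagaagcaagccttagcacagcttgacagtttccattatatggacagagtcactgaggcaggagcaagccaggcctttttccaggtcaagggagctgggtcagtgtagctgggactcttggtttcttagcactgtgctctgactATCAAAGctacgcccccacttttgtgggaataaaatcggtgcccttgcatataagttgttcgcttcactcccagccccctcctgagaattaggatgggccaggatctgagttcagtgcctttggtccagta
TCF7L2 at 36.4 kb, chr10:112986426-112986725: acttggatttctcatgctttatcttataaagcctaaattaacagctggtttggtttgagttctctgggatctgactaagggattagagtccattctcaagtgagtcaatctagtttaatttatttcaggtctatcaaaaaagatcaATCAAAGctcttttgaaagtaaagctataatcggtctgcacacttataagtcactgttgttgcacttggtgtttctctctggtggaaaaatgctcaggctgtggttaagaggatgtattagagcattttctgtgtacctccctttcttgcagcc
LGR5 upstream, within TSPAN8, chr12:71397117-71397416: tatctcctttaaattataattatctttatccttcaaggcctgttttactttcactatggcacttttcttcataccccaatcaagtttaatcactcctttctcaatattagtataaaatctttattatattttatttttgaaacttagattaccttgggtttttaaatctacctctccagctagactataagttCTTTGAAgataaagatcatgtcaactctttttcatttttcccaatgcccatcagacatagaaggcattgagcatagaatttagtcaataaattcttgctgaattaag
The DKK1 window held 2 matches, 1 on each strand, and the other windows held 1 each. None of the 4 overlaps an exon of a protein-coding gene. Of the 3 lost regions, the one at the LGR5 start had a match in its window, against 12.1% of all lost regions. None of the 15 windows held CCGGAA, against 3.7% of all regions of that class. No gained or lost H3K27ac region of the 9 loci lay within 1 kb of a run of 4 or more GGAA units, the repeat that the fusion is known to bind. One DKK2 region of neither class, chr4:107166462-107167161, lay 168 bp from a run of 13 units, with a peak in siNEG replicate 1 alone (fold 5.18). In all regions, such a run lay within 1 kb of 12.8% of lost and 0.89% of gained H3K27ac regions. A match is a string of letters and no measure of binding.

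Across the 9 loci, H3K27ac peaks covered more DNA after siFLI1 at DKK1, DKK3, AXIN2, TCF7L2 and LGR4, and did not pass the test at DKK2, TCF7 and LGR5. LEF1 had no H3K27ac peak in any list. H3K4me3 covered more DNA at DKK1, and less at TCF7 and LGR5. Covered length is the kb of the locus under peaks of a list, tested as log2(kb + 1) with limma over all protein-coding loci that had a mean of at least 0.5 kb, with Benjamini-Hochberg adjustment and a threshold of 0.05. Over all loci the median difference was 0.22 for H3K27ac and -0.10 for H3K4me3 on this log2 scale. In H3K27ac 25.1% of 15719 loci were higher in siFLI1 and 6.15% lower, against 5 and 0 of the 8 loci of this group that were tested. In H3K4me3 4.61% of 16053 loci were higher and 21.3% lower, against 1 and 2 of 7 tested. The median over the tested genes was 0.40 for H3K27ac and -0.18 for H3K4me3.

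Because of these shifts, each list was also centred on its median, a choice made after seeing the data. The split of all calls then moved from 80.3% to 48.2% higher for H3K27ac and from 17.8% to 46.9% higher for H3K4me3. Centred, 12.6% of all loci were higher and 13.5% lower in H3K27ac, against 3 and 1 of the 8 tested here, and 7.87% and 8.91% in H3K4me3, against 2 and 0 of 7. DKK1, DKK3 and AXIN2 stayed higher in H3K27ac (adjusted p of 0.00041, 0.0015 and 0.0011 with limma), TCF7L2 and LGR4 no longer passed (0.17 and 0.54), and LGR5 passed as lower (0.013). In H3K4me3, DKK1 stayed higher (1.4e-06), LGR4 passed as higher (0.0063), and TCF7 and LGR5 no longer passed (0.21 and 0.10).

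**Figure D1:**
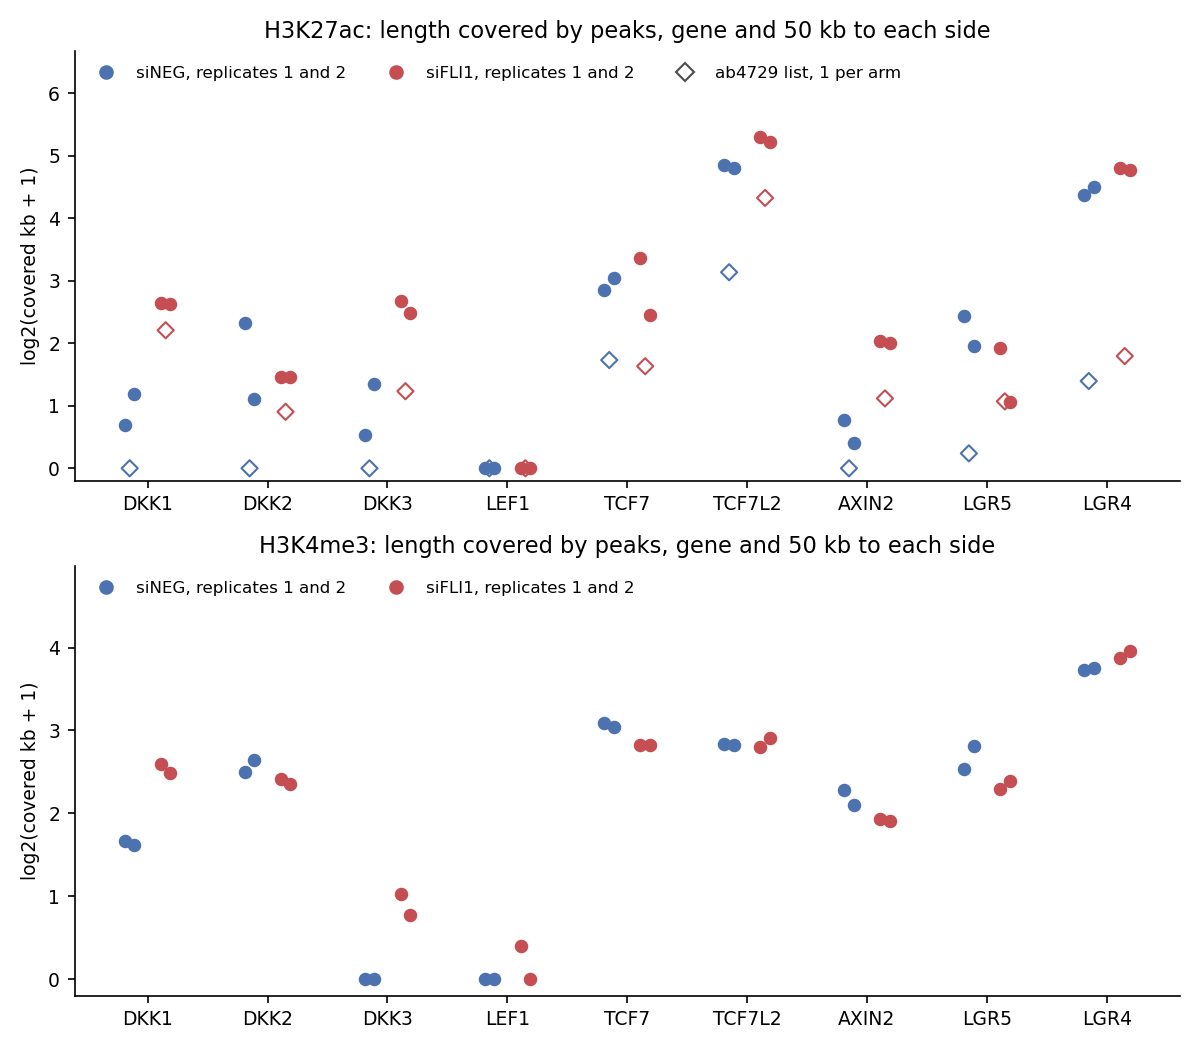
Length covered by H3K27ac peaks (top) and H3K4me3 peaks (bottom) in each list, as log2(covered kb + 1), over each gene with 50 kb to each side. Points are libraries, blue for siNEG and red for siFLI1, and open diamonds are the ab4729 lists. At DKK1, DKK3, AXIN2, TCF7L2 and LGR4 both red H3K27ac points lie above both blue points, and at LGR5 both lie below them.

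**Figure D2:**
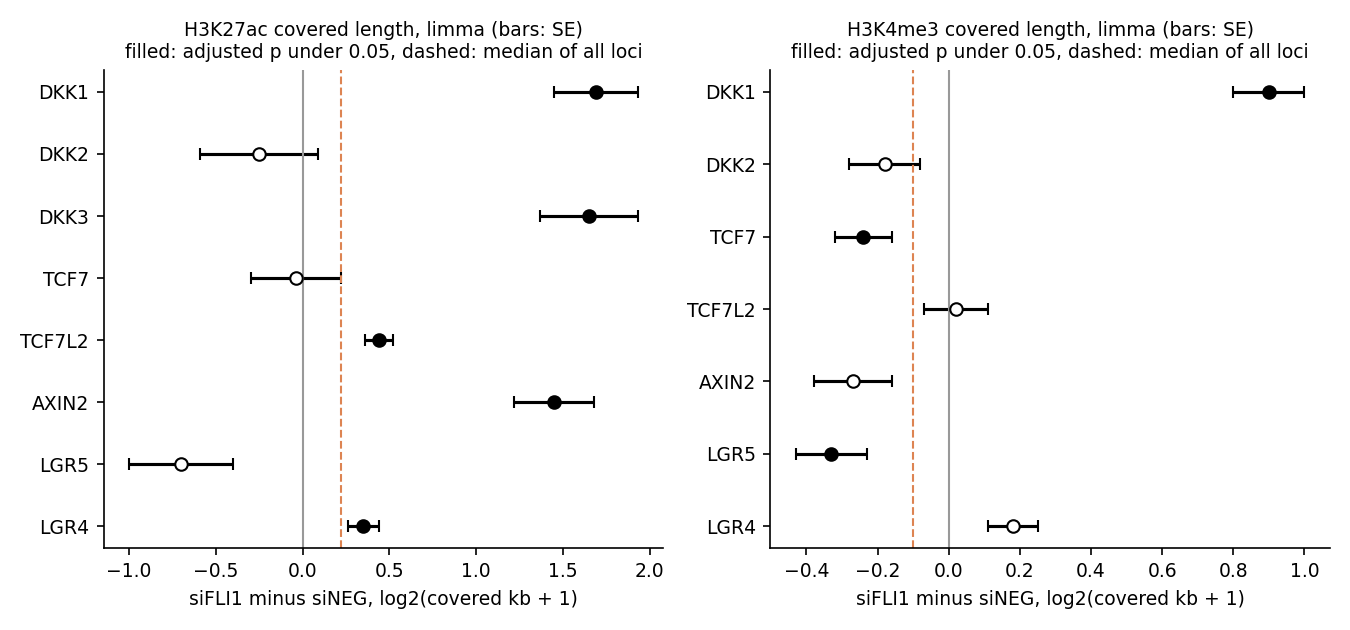
Difference of siFLI1 minus siNEG in log2(covered kb + 1) for H3K27ac (left, 8 genes) and H3K4me3 (right, 7 genes), with standard errors from limma. Filled points passed an adjusted p of 0.05, and the dashed line is the median over all loci (0.22 and -0.10).

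Presence of whole regions was read beside covered length. For each antibody, overlapping peaks (by 1 bp) of the 4 lists were joined into regions. Gained regions had a peak in both libraries of siFLI1 and in none of siNEG, and lost regions the reverse. Of the 107 H3K27ac regions, 15 were gained (14.0%, exact 95% interval 8.06% to 22.1%, counting error only) and 3 were lost (2.80%, 0.582% to 7.98%). Of all H3K27ac regions 8.19% were gained and 4.86% lost, so the first interval only just included the share over all regions. Gained regions lay at 6 of the 9 genes and lost ones at 2, against 38.0% and 22.9% of all protein-coding loci with 1 or more. A longer window can hold more regions, and these shares were not matched for window length (103.8 to 462.0 kb here). In H3K4me3, 2 of 20 regions were gained and 0 lost (2.17% and 2.83% of all regions). In ETS1, 2 of 3 regions were gained (44% of all regions). These presence counts have no test.

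**Figure D3:**
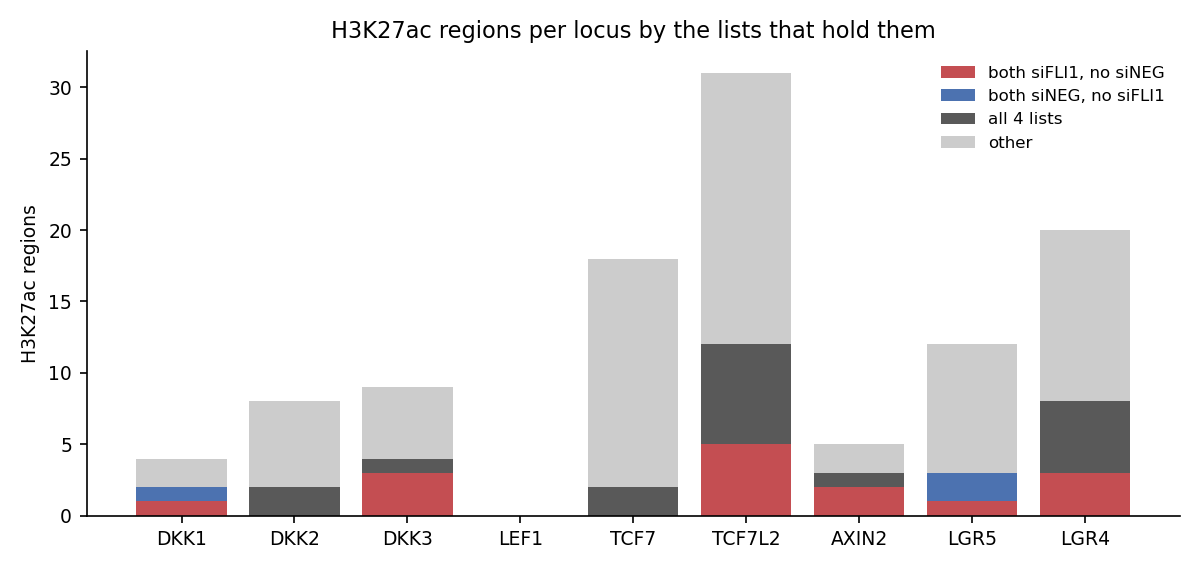
H3K27ac regions at each locus, stacked by the lists that hold them: red for gained, blue for lost, dark grey for all 4 lists and light grey for any other pattern. TCF7L2 had the most regions (31) and the most gained ones (5), and LEF1 had none.

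The ab4729 lists gave a further reading of the H3K27ac regions with 1 library per arm and no test. Of the 15 gained regions, 5 were held by the siFLI1 list alone and 10 by neither. Over all gained regions 31.6% were in that list alone and 0.863% in the siNEG list alone. Of the 3 lost regions, 1 was held by the siFLI1 list alone and 2 by neither. Over all lost regions 4.11% were in the siFLI1 list alone, 12.6% in the siNEG list alone and 79.7% in neither.

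DKK1 (ENSG00000107984.10), the secreted LRP inhibitor at chr10:52314281-52318042 on the + strand, carried more of both marks in the siFLI1 lists. H3K4me3 covered 2.17 and 2.07 kb in the siNEG lists and 5.06 and 4.61 kb in the siFLI1 lists. The arms did not overlap, and each list had a single peak over the start that reached 1.80 and 1.76 kb past it in siNEG and 4.04 and 3.82 kb past it in siFLI1. The difference on the log2(kb + 1) scale was 0.90 (SE 0.10, n = 2 libraries per arm, adjusted p = 2.1e-05 with limma), larger than at 99.3% of loci. It passed in every alternative with all 4 libraries, where it lay between 0.90 and 1.12. The highest adjusted p of these was 0.00034 with limma, with 10 kb to each side. With 1 library left out the difference lay between 0.85 and 0.96. The fold of that peak over its local background, as the authors' peak caller gave it, was 18.3 and 19.3 in siNEG and 54.5 and 46.6 in siFLI1.

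H3K27ac at DKK1 covered 0.61 and 1.28 kb in siNEG and 5.24 and 5.17 kb in siFLI1, from 1, 3, 2 and 2 peaks with mean folds of 5.38, 3.20, 5.56 and 5.51. The difference was 1.69 (SE 0.24, n = 2 libraries per arm, adjusted p = 0.00071 with limma). In the siFLI1 lists 1 peak ran from the start site over the gene, from -0.02 to 4.76 kb and from 0.40 to 4.71 kb, with folds of 7.11 and 8.06. In siNEG, replicate 1 had no peak there and replicate 2 had one between 3.86 and 4.39 kb past the start with a fold of 3.11. The ab4729 lists had no peak at the locus in siNEG and 3 peaks in siFLI1, between 0.11 and 4.46 kb, with a highest fold of 8.30.

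Past the gene, the gained region chr10:52319325-52320193 had folds of 4.01 and 2.96 in siFLI1, and its sequence holds 3 TCF and LEF matches. The lost region chr10:52335043-52335669, 21.1 kb past the start, had folds of 5.38 and 3.59 in siNEG, so the locus held a change in each direction. No ETS1 peak lay at the locus in any list, although the promoter holds an ETS site. Without siFLI1 replicate 1 the H3K27ac difference was 1.69 with an adjusted p of 0.051, and over the other alternatives the p lay between 0.00014 and 0.037.

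DKK2 (ENSG00000155011.9), at chr4:106921802-107283806 on the - strand, showed no difference that passed with all 4 libraries. H3K4me3 lay at its canonical start in 1 region, chr4:107032155-107037380, and covered 4.64 and 5.23 kb in siNEG and 4.32 and 4.12 kb in siFLI1. The arms did not overlap, but the difference of -0.18 (SE 0.10) had an adjusted p of 0.17 with limma. The folds of that region were 30.8 and 39.4 in siNEG and 20.3 and 21.2 in siFLI1. No H3K27ac peak lay at this start. H3K27ac in all 4 lists lay instead at a start of longer transcripts far upstream, at -248.0 kb, chr4:107283846-107284855, with folds of 5.18 and 7.26 in siNEG and 11.4 and 6.62 in siFLI1. Covered H3K27ac was 4.01 and 1.15 kb in siNEG and 1.76 and 1.76 kb in siFLI1 (log2 difference -0.25, SE 0.34, adjusted p = 0.62 with limma). The siNEG replicates lay on either side of the siFLI1 pair, and the difference was -0.86 without siNEG replicate 2 (adjusted p = 0.05, which passed before rounding) and 0.36 without siNEG replicate 1 (0.25).

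DKK3 (ENSG00000050165.19), at chr11:11956207-12009769 on the - strand, had an H3K4me3 region at its canonical start in the siFLI1 lists only. That gained region, chr11:12007952-12008978, had folds of 5.09 and 4.99 and covered 1.03 and 0.71 kb, against 0 kb in both siNEG lists. With all 4 lists the locus was below the 0.5 kb limit, so it was not in the test. Without that limit its log2 difference was 0.89 (SE 0.16). With siNEG at 0 kb, the size of this difference depends on the pseudocount of 1 kb. The locus entered that fit only through its siFLI1 peaks, so the p-value of the fit is not read here. H3K27ac covered 0.44 and 1.54 kb in siNEG and 5.38 and 4.60 kb in siFLI1, from 1, 4, 10 and 6 peaks with mean folds of 5.44, 3.71, 4.72 and 4.71. The difference was 1.65 (SE 0.28, n = 2 libraries per arm, adjusted p = 0.0019 with limma).

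None of those H3K27ac peaks lay at the canonical start of DKK3. The 3 gained regions lay upstream, at -33.4, -34.3 and -35.9 kb from it, in intergenic DNA whose nearest annotated start is that of LINC02547. The first, chr11:12041717-12042422, had folds of 7.82 and 6.67 and was held by the ab4729 siFLI1 list at 3.44. The others were chr11:12042634-12043126 (folds 4.01 and 2.99) and chr11:12044145-12044959 (5.55 and 3.39). The region in all 4 lists, chr11:11978967-11979976, lay at a start inside the gene, with folds of 5.44 and 4.01 in siNEG and 4.97 and 6.61 in siFLI1. Leaving out siFLI1 replicate 1 or 2 gave differences of 1.55 and 1.74 with adjusted p of 0.084 and 0.051.

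AXIN2 (ENSG00000168646.14), the feedback target in the destruction complex at chr17:65528563-65561648 on the - strand, had ETS1 at its promoter in every ETS1 list. The region chr17:65561071-65561907 spans the start, and its folds were 11.7 and 11.9 in siNEG and 19.0 and 28.5 in the siFLI1 lists counted as 1 sample. It was 1 of 126 ETS1 regions held by all 4 lists. Its 300-base window held 2 TCF and LEF matches, against 3.17% of the regions of that class with any, and no CCGGAA, against 23.0%.

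H3K27ac at AXIN2 covered 0.70 and 0.32 kb in siNEG and 3.11 and 3.03 kb in siFLI1, from 2, 1, 5 and 4 peaks with mean folds of 8.05, 7.56, 6.16 and 4.85. The difference was 1.45 (SE 0.23, n = 2 libraries per arm, adjusted p = 0.0015 with limma). The promoter region itself, chr17:65560830-65561671, was in all 4 lists, with folds of 12.4 and 7.56 in siNEG and 12.3 and 6.38 in siFLI1, which overlapped. Of the added length, a part lay at the start in siFLI1 replicate 1, where the promoter peak ran from -0.02 to 0.82 kb, against 0.10 to 0.52 kb and 0.10 to 0.42 kb in siNEG. In replicate 2 it ran from 0.05 to 0.46 kb. One gained region, chr17:65530651-65532477, lay near the 3' end of the gene with folds of 5.68 and 3.0, and another, chr17:65594196-65595251, lay upstream at -33.1 kb, within the unnamed gene ENSG00000266076, with folds of 3.96 and 5.73. The ab4729 siFLI1 list held both, at 8.00 and 4.28, and the ab4729 siNEG list had no peak at the locus.

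H3K4me3 at AXIN2 did not follow the same direction. It covered 3.87 and 3.30 kb in siNEG and 2.80 and 2.76 kb in siFLI1 (log2 difference -0.27, SE 0.11, adjusted p = 0.068 with limma). The folds of its promoter region, chr17:65558660-65562076, overlapped between arms, at 21.7 and 37.4 in siNEG and 31.9 and 22.5 in siFLI1. Without siFLI1 replicate 1 the H3K27ac difference was 1.43 with an adjusted p of 0.054.

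**Figure D4:**
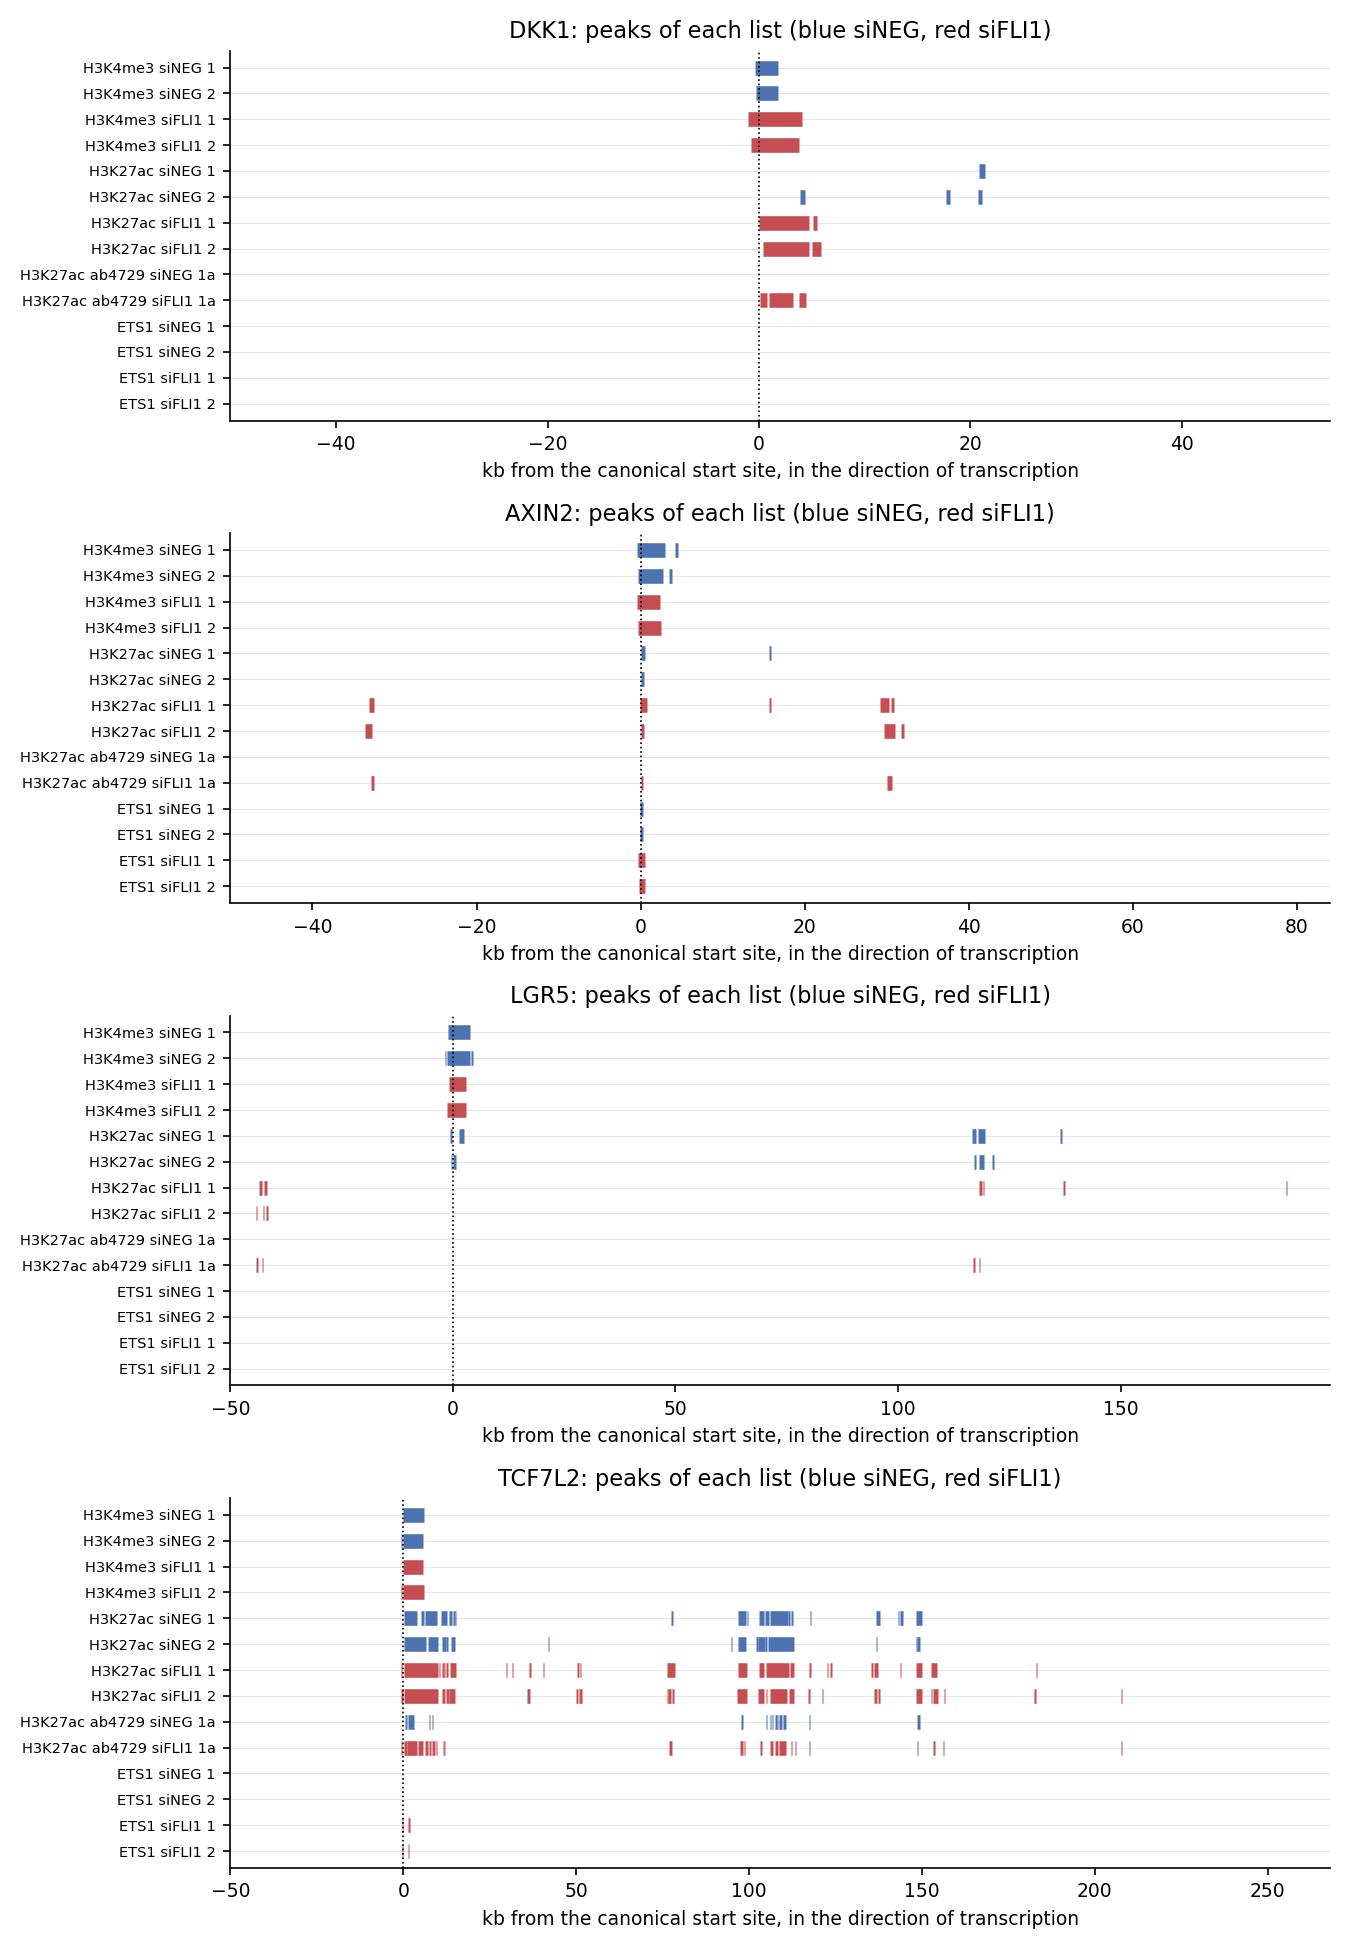
Peaks of every list at DKK1, AXIN2, LGR5 and TCF7L2, drawn as bars against kb from the canonical start site in the direction of transcription, blue for siNEG and red for siFLI1. At DKK1 the siFLI1 H3K4me3 and H3K27ac bars extend further past 0 than the siNEG bars, at AXIN2 the red H3K27ac bars around -33.1 and 30.1 kb have no blue counterpart, and at LGR5 the H3K27ac bars at 0 are blue only.

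LEF1 (ENSG00000138795.10), at chr4:108047545-108168956 on the - strand, was without H3K27ac peaks in all 6 lists and without ETS1 peaks in all 4. Its 1 H3K4me3 region, chr4:108173054-108173373, was a peak of 320 bp with a fold of 4.40 in siFLI1 replicate 1 alone, upstream of the start at -4.3 kb. No H3K4me3 peak lay within 1 kb of any of its 21 annotated starts. The locus was below the limit for both marks, and without the limit its H3K4me3 difference was 0.20 (SE 0.18, adjusted p = 0.45 with limma).

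TCF7 (ENSG00000081059.20), at chr5:134114681-134151865 on the + strand, had H3K4me3 at its start in all 4 lists. The region chr5:134114205-134116354 had folds of 11.2 and 11.8 in siNEG and 7.96 and 6.97 in siFLI1, and the arms did not overlap. H3K4me3 over the locus covered 7.54 and 7.25 kb in siNEG and 6.11 and 6.07 kb in siFLI1, a log2 difference of -0.24 (SE 0.08, adjusted p = 0.04 with limma). Most of that length belongs to the promoter of the neighbour SKP1, chr5:134173289-134179116, with folds of 70.0, 84.6, 53.8 and 63.0. Leaving out any 1 of the 4 libraries gave differences between -0.27 and -0.22 with adjusted p from 0.095 to 0.18, and with 10 kb to each side, which leaves out the SKP1 promoter, the difference was -0.41 (SE 0.15) with an adjusted p of 0.082.

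No H3K27ac region lay at the canonical start of TCF7, while 6 lay within 1 kb of other starts inside the gene, none in all 4 lists. Of these, chr5:134140664-134142427 had folds of 4.92 in siNEG replicate 2 and of 6.51 and 3.26 in siFLI1. The region nearest the canonical start, chr5:134110304-134111373, was upstream at -3.8 kb with folds of 5.93 and 5.98 in siNEG and 5.71 in siFLI1 replicate 2. Covered H3K27ac was 6.24 and 7.27 kb in siNEG and 9.32 and 4.48 kb in siFLI1, so the siFLI1 replicates lay on either side of the siNEG pair (log2 difference -0.04, SE 0.26, adjusted p = 0.92 with limma). The strongest region in all 4 lists, chr5:134174611-134177989, is at SKP1 and had folds of 37.6, 29.6, 30.7 and 27.3. No region of the locus was gained or lost.

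TCF7L2 (ENSG00000148737.18), at chr10:112950247-113167678 on the + strand, had the longest H3K27ac coverage of the 9 loci, in a window of 317.4 kb where that of DKK2 is 462.0 kb. Covered H3K27ac was 28.0 and 26.8 kb in siNEG and 38.4 and 36.4 kb in siFLI1, from 20, 15, 28 and 26 peaks with mean folds of 6.88, 5.58, 5.90 and 5.99. The difference was 0.44 (SE 0.08, n = 2 libraries per arm, adjusted p = 0.003 with limma), at the 71.4 percentile of all loci. Without siFLI1 replicate 1 it was 0.40 with an adjusted p of 0.072. The ab4729 lists covered 7.79 kb in siNEG and 19.0 kb in siFLI1.

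Of the 5 gained H3K27ac regions of TCF7L2, 1 lay just before the start and 4 inside the gene. The one with the highest folds, chr10:113102823-113104940, had 8.93 and 8.59 in siFLI1 and 8.14 in the ab4729 siFLI1 list. The others inside the gene were chr10:112985979-112987251 (folds 4.34 and 4.76), chr10:113000278-113001060 (4.34 and 4.35) and chr10:113001105-113001919 (2.94 and 4.68), and no ab4729 list held them. The promoter one, chr10:112949570-112950034, was low in the siFLI1 lists, at 2.94 and 2.76, and 6.62 in the ab4729 siFLI1 list. The region in all 4 lists with the highest mean fold was inside the gene, chr10:113054888-113063291, with 12.8 and 18.9 in siNEG and 21.2 and 13.1 in siFLI1, which overlapped.

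Both gained ETS1 regions of the group lay within 1 kb of a TCF7L2 start. The upstream one, chr10:112949826-112950192, had folds of 4.14 and 7.74, and its summit lies in the promoter stretch printed above. The other, chr10:112951605-112952084, lay past the start with folds of 5.30 and 6.11. It was 689 bp from a TCF7L2 start, and its centre was 31 bp from a start of the unnamed gene ENSG00000233547. That gene also has the start nearest the centre of the promoter H3K4me3 region described below. The window of neither ETS1 region held CCGGAA, against 23.6% of all gained ETS1 regions. When each list was cut to its 208 strongest peaks, the length of the shortest, neither was called, and 10.7% of all ETS1 regions were gained. With a −log10 q of at least 5 only 1 was called, and 45.1% of all ETS1 regions were gained.

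H3K4me3 at the TCF7L2 start, chr10:112950146-112956382, had folds of 54.4 and 36.3 in siNEG and 78.7 and 71.1 in siFLI1, without overlap. Its covered lengths overlapped, at 6.12 and 6.11 kb in siNEG and 5.95 and 6.50 kb in siFLI1 (log2 difference 0.02, SE 0.09, adjusted p = 0.88 with limma). So the arms were apart in fold but not in length at TCF7L2, and apart in both at DKK1.

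LGR5 (ENSG00000139292.13), the R-spondin receptor and stem cell marker at chr12:71439798-71586310 on the + strand, differed in the direction opposite to DKK1. H3K4me3 covered 4.80 and 6.01 kb in siNEG and 3.92 and 4.24 kb in siFLI1, a log2 difference of -0.33 (SE 0.10, n = 2 libraries per arm, adjusted p = 0.03 with limma). The promoter region chr12:71438429-71443694 had folds of 36.7 and 46.8 in siNEG and 10.5 and 25.3 in siFLI1. That region spans the LGR5 start, but the start nearest its centre, 837 bp away, is one of the neighbour TSPAN8. The difference of the mean log2 folds, -1.34, was at the 0.3 percentile of 12984 regions held by all 4 lists, whose median was 0.07. Leaving out siNEG replicate 2, siFLI1 replicate 1 or siFLI1 replicate 2 gave covered-length differences of -0.19, -0.28 and -0.37 with adjusted p of 0.30, 0.26 and 0.12, and with 10 kb to each side the difference stayed at -0.33 with an adjusted p of 0.06.

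Of the 4 H3K27ac lists in the test, only the siNEG ones held peaks around the start of LGR5. Neither ab4729 list had a peak there. The lost region chr12:71439225-71439662 had folds of 4.21 and 3.20, and siNEG peaks in replicate 2 (3.89) and replicate 1 (4.16) lay just past the start. The centre of that replicate 1 peak lay 239 bp from a start of TSPAN8. A lost region 117.1 kb into the gene, chr12:71556508-71557351, had folds of 5.04 and 3.27, but the ab4729 siFLI1 list held it at 2.93. The gained region chr12:71397053-71398292, upstream at -42.1 kb within TSPAN8, had folds of 4.04 and 5.33. Covered H3K27ac over the locus was 4.39 and 2.87 kb in siNEG and 2.79 and 1.09 kb in siFLI1 (log2 difference -0.70, SE 0.30, adjusted p = 0.10 with limma), which did not pass. It was -1.13 without siFLI1 replicate 1 and -0.27 without siFLI1 replicate 2. With 10 kb to each side in place of 50 kb, which leaves out the upstream region, the difference was -1.61 with an adjusted p of 0.025. With the ab4729 lists added it was -0.19 with an adjusted p of 0.68.

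LGR4 (ENSG00000205213.14), at chr11:27365961-27472790 on the - strand, had wide H3K27ac and H3K4me3 in the 4 lists of each mark. Part of both lay at the promoters of the neighbours CCDC34 and LIN7C. The ab4729 lists covered 1.63 kb in siNEG and 2.47 kb in siFLI1, and all 5 peaks of the siNEG one lay near starts of CCDC34 or LIN7C. Covered H3K27ac was 19.7 and 21.6 kb in siNEG and 26.8 and 26.3 kb in siFLI1, from 13, 18, 18 and 21 peaks with mean folds of 6.43, 5.37, 6.39 and 5.96. The difference of 0.35 (SE 0.09, adjusted p = 0.019 with limma) was at the 63.2 percentile of all loci. The call was lost without any 1 of the 4 libraries (differences of 0.28 to 0.41, adjusted p of 0.056 to 0.14) and with the ab4729 lists added (adjusted p = 0.051) or 10 kb to each side (0.075).

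The 3 gained H3K27ac regions of the LGR4 locus lay within CCDC34 (chr11:27350472-27351676, folds 7.69 and 4.43), inside LGR4 (chr11:27422306-27423252, folds 4.01 and 4.73) and within LIN7C (chr11:27504721-27505255, folds 4.16 and 4.63). The strongest H3K27ac region in all 4 lists was also at LIN7C, chr11:27505746-27507561, with folds of 13.2, 11.4, 16.4 and 14.9. A gained H3K4me3 region, chr11:27465124-27467551, lay 6.5 kb into LGR4 with folds of 5.02 and 5.98, next to the promoter region. That promoter region, chr11:27467653-27473950, had overlapping folds of 54.3 and 66.0 in siNEG and 50.4 and 67.6 in siFLI1. H3K4me3 covered 12.3 and 12.5 kb in siNEG and 13.7 and 14.6 kb in siFLI1 (log2 difference 0.18, SE 0.07, adjusted p = 0.066 with limma).

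**Figure D5:**
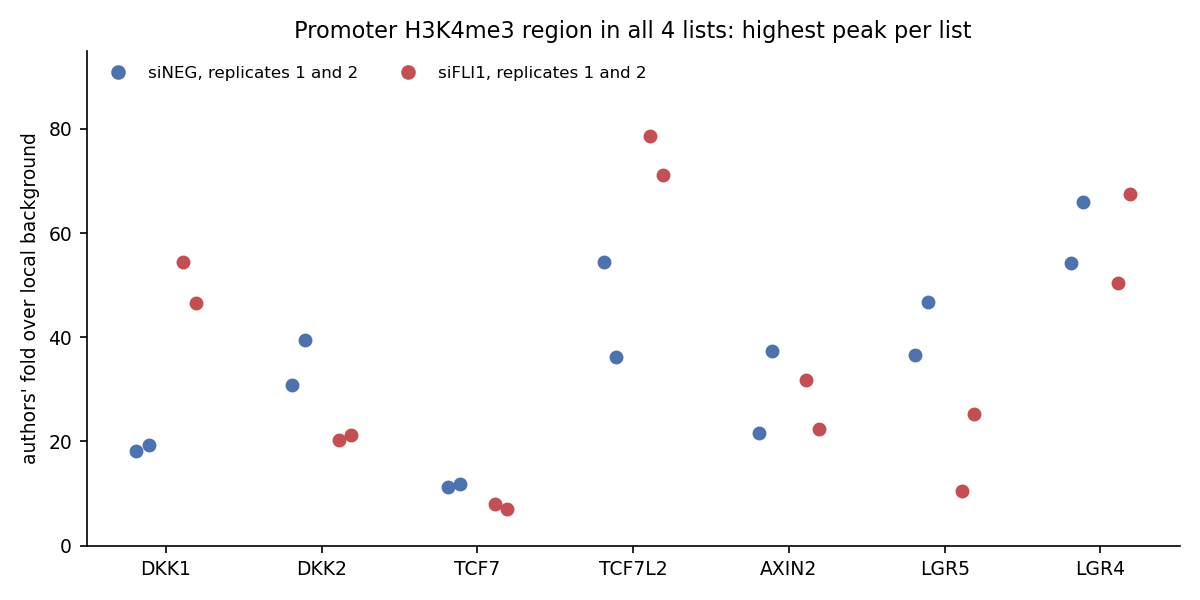
Deposited fold over local background of the highest peak in the promoter H3K4me3 region of 7 genes, 1 point per list, blue for siNEG and red for siFLI1. Both red points lie above both blue points at DKK1 and TCF7L2 and below them at DKK2, TCF7 and LGR5.

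The promoter H3K4me3 regions of 7 genes were held by all 4 lists. In 2 of the 7 both siFLI1 folds were above both siNEG folds and in 3 both were below, against 28.9% and 17.1% of 12984 such regions. A fold is set within each list, so these orders are descriptions. By the difference of mean log2 folds, siFLI1 minus siNEG, DKK1 (1.43) and LGR5 (-1.34) stood at the ends of the group, at the 99.3 and 0.3 percentiles, TCF7L2 (0.75), TCF7 (-0.62) and DKK2 (-0.75) came next, and LGR4 (-0.04) and AXIN2 (-0.09) had overlapping arms. At a TSS, 7 of the 9 genes had H3K4me3 in all 4 lists (62.9% of protein-coding genes), 5 had H3K27ac in all 4 (46.2%) and 2 had ETS1 in any list (12.6%).

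The other genes of the pathway were read from a list of 86. Covered H3K27ac passed as higher at 19 and lower at 5 of the 70 tested, and covered H3K4me3 as higher at 9 and lower at 14 of 75. Over all loci the shares were 25.1% higher and 6.15% lower in H3K27ac, and 4.61% and 21.3% in H3K4me3. The medians of the listed genes were 0.15 and -0.06, beside 0.22 and -0.10 over all loci. The balance of both marks turned after centring, to 8 higher and 15 lower in H3K27ac and to 13 higher and 7 lower in H3K4me3. That of all loci moved too, to 1977 higher and 2125 lower of 15719 in H3K27ac. In H3K4me3 it moved to 1263 higher and 1431 lower of 16053 (7.87% and 8.91%). Of 872 H3K27ac regions, 72 were gained (8.26%) and 43 lost (4.93%), close to the shares of all regions. In H3K27ac, cytoplasmic parts of the pathway were higher at 7 of 15 tested and lower at 0, beside 25.1% and 6.15% of all loci, and after centring they were higher at 2 and lower at 1. Ligands were higher at 4 of 13 and lower at 0, and after centring higher at 1 and lower at 4. The centred shares over all loci were 12.6% higher and 13.5% lower. Receptors and co-receptors were higher at 3 of 14 and lower at 1, the R-spondin arm at 2 and 1 of 5, secreted and surface antagonists at 1 and 2 of 10, nuclear parts at 2 and 0 of 11, and common targets at 0 and 1 of 2. After centring these were 3 and 5, 0 and 1, 0 and 3, 2 and 0, and 0 and 1, so the balance of receptors and of the R-spondin arm turned.

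The H3K27ac differences of that list were widest at WNT2B, a ligand (2.28, SE 0.26, adjusted p = 0.0003 with limma), with 5 gained regions, and FZD6, a Frizzled receptor (1.87, SE 0.25, adjusted p = 0.0006), with 4. FZD8, another Frizzled receptor, fell (-1.76, SE 0.23, adjusted p = 0.00058 with limma) and had 5 lost and 0 gained regions. NKD1, an intracellular inhibitor that is itself a WNT target, rose by 1.62 with 3 gained regions, and the co-repressor TLE4 rose by 1.34. WNT11 rose by 0.90, CTNNB1 (beta-catenin) by 0.75, the co-receptor ROR1 by 0.74 with 4 gained regions, and DVL1 by 0.73, while the R-spondin gene RSPO2 fell by 0.85. WNT11 and CTNNB1 did not pass after centring (adjusted p of 0.067 and 0.11 with limma).

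Other genes of the list with 3 or more gained regions were TCF7L1 (7), ROR2 (6, beside 4 lost), FZD2 (4), NOTUM (3) and AXIN1 (3). The cell cycle gene CCND1 had 4 lost regions, and its covered H3K27ac fell by 0.37. In H3K4me3, the largest differences that passed were at WNT4 (1.17, SE 0.14, adjusted p = 2.5e-05 with limma), at KREMEN2 (-0.56) and at NOTUM (-0.56). WNT2B (0.50), ROR2 (0.48), WNT9A (0.47), FZD7 (0.41), the co-repressor TLE1 (0.40) and WNT11 (0.39) rose, and APC2 (-0.38) fell.

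For the 5 genes that passed in H3K27ac, the protein-coding loci on other chromosomes with the most similar covered lengths over 10 lists were named by Euclidean distance on the log2(kb + 1) scale. They were ADAMTS10 (0.94), NFILZ (0.94) and CHST11 (1.09) for DKK1, and CALML5 (0.80), MARCHF10 (1.19) and ARHGAP27 (1.26) for DKK3. For AXIN2 they were TWSG1 (0.59), APEX2 (0.65) and ALAS2 (0.65). For TCF7L2 they were ENAH (0.41), MTUS1 (0.42) and WASF2 (0.55), and for LGR4 NT5C (0.65), MATR3 (0.82) and ARMC7 (0.90). Loci of neighbouring genes share peaks, as with APEX2 and ALAS2.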

How the data were processed

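Peak lists were analysed for 14 libraries of TC-32 cells. Per the submitters' processing notes, the tools were cutadapt 4.4, BWA 0.7.17, Picard 2.17.11 and MACS2 2.1.1, and the builds named were GRCh38, hg38 and dm6, with no role given. Peaks were deposited per library, not on pooled replicates. Each peak was deposited with a fold, a ratio to local background that the authors' caller computed. The −log10 of its p-value and of its q-value, and a whole-number score that was not used here, were deposited beside it. A stronger immunoprecipitation gives more and longer peaks, so presence and covered length are not occupancy. H3K4me3 peaks lay within 1 kb of a TSS for 74.2% to 79.4% of peaks, against 18.9% to 19.4% for sites moved by 1 Mb, and 0 intervals ran past a chromosome end on hg38.

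Merging and classing used the autosomes, X and Y with Python 3.11.15, pandas 2.3.3 and numpy 2.4.6. Covered lengths were fitted with limma 3.58.1 in R 4.3.3 (pseudocount 1 kb), without a replicate term, and checked on simulated data. The ab4729 libraries entered only an alternative. No ETS1 fit was made, since the siFLI1 ETS1 lists counted as 1 sample and the peak names in the list of replicate 1 carried the number 2. Coordinates are on hg38, counted from 1.

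The text describes, for each gene, its promoter H3K4me3 region in all 4 lists, every gained or lost region and every ETS1 region. It also describes the H3K27ac region in all 4 lists with the highest mean fold. Of the 86 pathway genes it names at most 10 per mark past the test by size of difference, and those with 3 or more gained or lost H3K27ac regions. The 9 genes and the lists were chosen with earlier results of these data known.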

Additional observations from a re-analysis of the deposited data

How the results depend on the processing

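Peak calls at a fixed q limit, 2 libraries per arm and unknown depth limit these results: a library left out leaves 1 in its arm, assumed to vary like the other. Of 173 alternatives for the covered length of single genes, 136 kept direction and side of the threshold, 24 lost a call, 7 gained one and 6 turned direction, all 6 at genes that had not passed. The cause was not tested. DKK2 in H3K27ac gave -0.86 to 0.36 with 1 library left out and 0.13 with the ab4729 lists added. TCF7 in H3K27ac gave -0.50 to 0.42 with 1 library left out and 0.08 at a −log10 q of at least 5. TCF7L2 in H3K4me3 gave -0.03 to 0.08 with 1 library left out. The size of a difference also depended on the pseudocount. At 0.2 kb in place of 1 kb, H3K27ac gave 2.30 at DKK1, 2.30 at DKK3 and 2.26 at AXIN2 (1.69, 1.65 and 1.45 before).

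With 10 kb to each side, which covers less DNA, 8 H3K27ac regions were gained (15 with 50 kb). The share of all regions gained was 8.19% for both windows. Loci that passed numbered 2612 in H3K27ac and 2097 in H3K4me3 (4905 and 4155 with 50 kb). Centred lists gave 4102 and 2694. At a −log10 q of at least 5, 1 H3K27ac region was lost (3 before) and 1 ETS1 region gained (2 before), and with equal numbers of the strongest peaks 0 ETS1 regions were. Where absence needed no peak within 1 kb, 1 H3K4me3 region was gained (2 before). With 1 library left out, gained H3K27ac regions numbered 17 to 38 (11.4% to 25.2% of all regions), lost ones 5 to 16 (7.07% to 19.4%), gained H3K4me3 regions 2 to 4 (3.07% to 7.48%), lost ones 0 to 4 (3.92% to 17.3%), and passing loci 826 to 4224 (H3K27ac) and 257 to 3246 (H3K4me3). The fewest passing loci of both marks were without siFLI1 replicate 1.

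Replicate numbers are shared between arms, but nothing says that they mark a shared batch. A fit with the replicate block passed 5316 loci in H3K27ac and 5403 in H3K4me3. Under it LGR5 H3K27ac (adjusted p = 0.032 with limma), AXIN2 H3K4me3 (0.045) and LGR4 H3K4me3 (0.033) passed.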
